A study of Sus scrofa with 6 samples.

Results

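The genes described here encode heat shock proteins and co-chaperones of the pig. A probe set was taken where it carried exactly 1 gene symbol that began with HSPA, HSPB, HSPD, HSPE, HSPH, HSP90, DNAJ or HSF, began with CCT or BAG followed by a number, or was TCP1 or SERPINH1. This gave 95 probe sets of 59 genes, out of 23999 probe sets and 6765 named genes on the array. Of the 59 genes, 35 had 1 probe set and 24 had several, and where there were several the one with the highest mean over the 6 arrays stood for the gene. The genes comprised 9 HSPA genes (HSP70), 4 HSP90 and HSPH genes, 2 genes of the mitochondrial chaperonin (HSPD1 and HSPE1), 6 genes of the cytosolic chaperonin (CCT and TCP1) and 7 numbered HSPB genes (small heat shock proteins). The J-domain genes numbered 4 DNAJA, 7 DNAJB and 11 DNAJC genes. The others were 4 BAG genes, 3 HSF genes, HSPBP1, whose symbol fits the rule by its first letters, and SERPINH1.

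RNA of 6 pig cell samples was measured with 1 array each. The 4 induced pluripotent stem (iPS) cell lines were PS24, labelled for the surface antigens SSEA1, SSEA3 and SSEA4, 30AC5, labelled for SSEA1, and iPF4-2 and iPSCs-w, both labelled for SSEA3 and SSEA4. The somatic samples were PAFSC, amniotic fluid stem cells, and PEF, embryo fibroblasts. All were grown in DMEM with 15% serum for 72 hours, and the iPS lines were kept on inactivated mouse embryonic fibroblasts, whose share of the RNA was not tested. Each line is a single sample, the labels name no repeated cultures, and neither the reprogramming factors nor the ages and strains of the donor pigs are given in the sources used here. The study compared its own lines with those of other laboratories, which differ in surface markers and plasticity. The p-values below therefore measure the spread between these samples, which are different lines and cell types.

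Molecular chaperones bind unfolded or partly folded proteins and release them through cycles of ATP binding. HSP70 proteins take up their clients with the help of J-domain proteins, which stimulate ATP hydrolysis, and let them go with the help of nucleotide exchange factors such as the BAG proteins. HSP90 matures signalling proteins, the chaperonins enclose a protein in a chamber where it can fold, and small heat shock proteins hold unfolded proteins without using ATP. HSF1 is the main transcription factor of the heat shock response. Human pluripotent stem cell lines are known for high levels of cytosolic chaperonin subunits.

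The deposited values are log2 values with an unknown zero for every probe set, so the arrays can be compared within a gene and the level of one gene cannot be set against that of another. The PAFSC array stood apart from the other 5. Its standard deviation over all probe sets was 2.01, against 0.610 to 0.808 on the others, its median was 0.70, against -0.06 to 0.05, and 8.60% of its values lay below -3, against 0.121% to 0.521%. Among the 95 probe sets of the chaperone genes, 24 lay below -3 on PAFSC, 1 each on iPSCs-w and PEF, and 0 on the others. The array's control genes for RNA integrity (GAPDH, actin and EF1A) had a 5′ minus 3′ signal of 1.90 on PAFSC and -1.90 on PS24, and of -0.03 to 0.19 on the other 4. Differences of the iPS mean from the somatic mean, that of PAFSC and PEF, are therefore given beside those from PEF alone. A difference from PEF rests on 1 somatic sample, which is assumed to vary like the iPS lines.

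The labels were set against marker genes. Fibroblast markers had a median of -0.58 to 0.38 on the iPS arrays, against 1.77 on PAFSC and 4.52 on PEF, over 10 of 11 genes measured. Pluripotency markers had 5 of 10 genes measured, and POU5F1, a core factor of pluripotency, read 3.68 in iPF4-2 and 3.61 in iPSCs-w but 0.07 in PS24 and -0.07 in 30AC5, against 1.09 in PAFSC and -0.50 in PEF. By their median, fibroblast markers thus set PS24 and 30AC5 below both somatic samples, while POU5F1 was not high in these lines. Single markers varied, and every line lay below both somatic samples in 4 of the 10, against 10.3% of all genes. THY1 and VIM read 1.07 and 0.54 in 30AC5, against 0.88 and 0.44 in PAFSC. LUM and POSTN read 3.77 and 3.01 in iPF4-2, against 1.59 and 1.17 in PAFSC. Fewer cells of a type and less RNA per cell cannot be told apart in such samples.

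**Figure D1:**
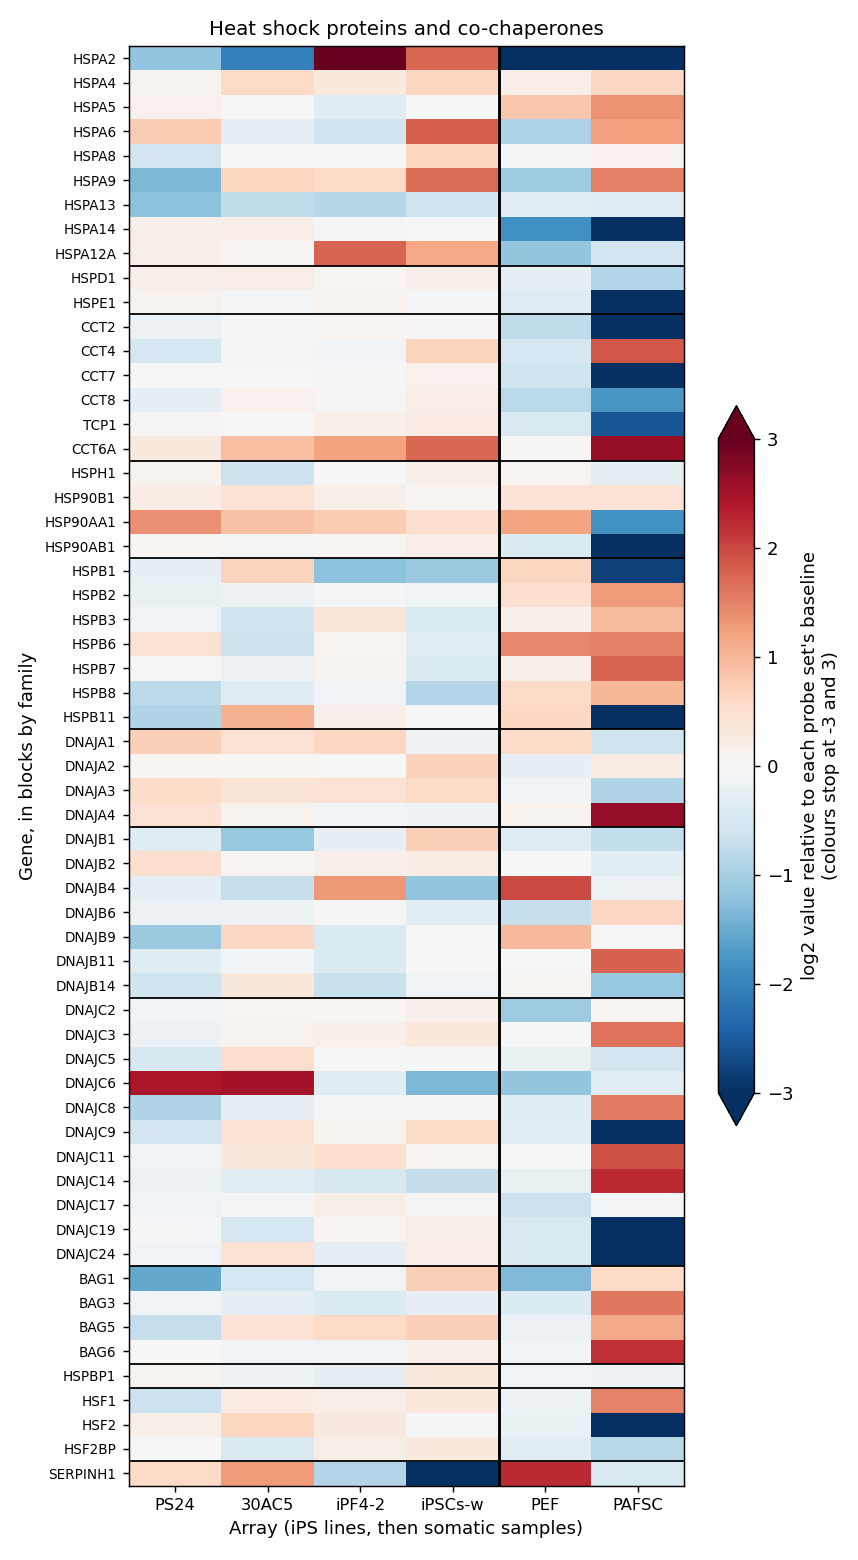
Log2 value of each of the 59 genes (rows, in blocks by family) on the 4 iPS arrays and the 2 somatic arrays (columns, separated by the vertical line), relative to an unknown baseline of each probe set, with colours that stop at -3 and 3. PAFSC holds most of the darkest cells for low values, while the highest value is that of HSPA2 in iPF4-2. The rows of HSPA2, DNAJC6 and SERPINH1 differ most among the iPS lines.

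The first question was whether chaperone genes differ between the iPS lines and the somatic samples. Of the 59 genes, 33 averaged higher and 26 lower in the iPS lines, where 39.1% of all probe sets averaged higher and 60.9% lower, with a median difference of 0.17 on the log2 scale, against -0.34 over all probe sets and -0.26 over all genes. In limma's test with Benjamini-Hochberg adjustment, 0 of the 59 passed a threshold of 0.05, where 0.025% of all probe sets did. At an unadjusted p under 0.05 there were 16 of 59, or 27.1%, against 13.7% of all probe sets. All 4 lines lay above both somatic samples in 14 genes, or 23.7%, against 11.9% of all probe sets and 15.6% of all genes. They lay below both in 6 genes, or 10.2%, against 9.99% of all probe sets and 10.3% of all genes, a share near the background.

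Against PEF alone, 39 genes averaged higher and 20 lower in the iPS lines, where 61.4% of all probe sets averaged higher and 38.6% lower, with a median difference of 0.22, against 0.17 over all genes. In limma 0 of 59 passed and 9 had an unadjusted p under 0.05, where 0.567% and 12.3% of all probe sets did. The 4 lines lay above PEF in 20 genes, or 33.9%, against 32.4% of all probe sets and 35.9% of all genes. They lay below it in 9 genes, or 15.3%, against 19.1% of all probe sets and 18.8% of all genes. These shares were near the background. Against PAFSC alone 31 of 59 passed in limma, or 52.5%, where 59.6% of all probe sets did. The families are therefore described by which genes lay on which side, and by how much.

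**Figure D2:**
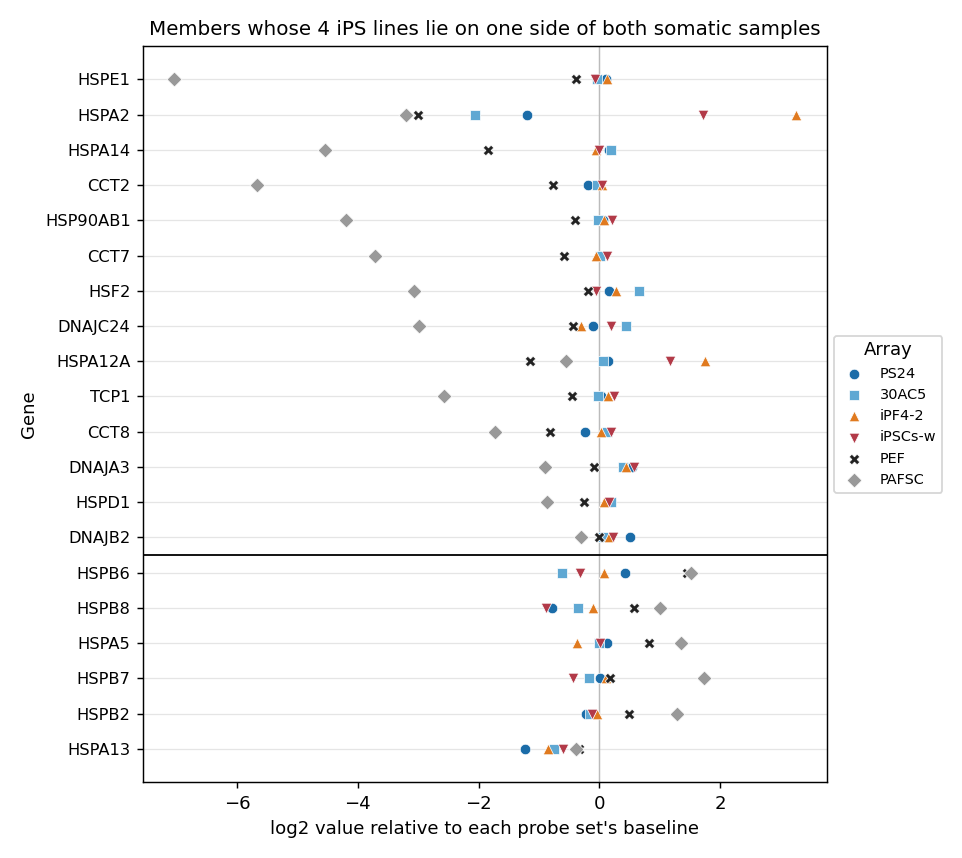
Log2 values (horizontal axis, relative to each probe set's baseline) of the 20 genes in which the iPS lines did not overlap PEF and PAFSC, 14 with the lines above both and, under the horizontal line, 6 with the lines below both, ordered by the size of the difference. Each symbol is 1 array. PAFSC (grey diamonds) makes most of the distance in HSPE1, CCT2 and HSP90AB1, while PEF (black crosses) lies close to the lines there.

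The smallest adjusted p-values against PEF among the chaperone genes were those of a pair of ribosome-bound partners. HSPA14 and DNAJC2 form the ribosome-associated complex of mammals, which meets the growing protein chain as it leaves the ribosome. HSPA14 read 0.19 in 30AC5, 0.16 in PS24, -0.01 in iPSCs-w and -0.06 in iPF4-2, against -4.55 in PAFSC and -1.85 in PEF. The 4 lines lay within 0.26 of each other and all above both somatic samples. The difference was 3.27 (SE 0.72, limma adjusted p = 0.185), and 1.92 against PEF alone (SE 0.26, limma adjusted p = 0.0656), which misses the threshold. DNAJC2 read -0.09, 0.09, 0.05 and 0.16 in PS24, 30AC5, iPF4-2 and iPSCs-w, against 0.05 in PAFSC and -1.09 in PEF. All lines lay above PEF, by 1.15 on average (SE 0.25, limma adjusted p = 0.171), while PAFSC lay among the lines. A second DNAJC2 probe set had -0.27 to 0.29 in the lines, against -1.48 in PAFSC and -1.20 in PEF, with both somatic samples below every line.

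The cytosolic chaperonin is a ring of different subunits that folds actin, tubulin and other proteins. Among its 6 measured subunits, all 6 averaged higher in the iPS lines than in PEF, by 0.54 to 0.99, and all 9 of their probe sets did so, by 0.27 to 0.99. In 5 of the 6 all lines lay above PEF, against 35.9% of all genes. CCT2 read -0.19, -0.04, 0.05 and 0.04 in PS24, 30AC5, iPF4-2 and iPSCs-w, against -5.67 in PAFSC and -0.77 in PEF. CCT8 read -0.24, 0.13, 0.03 and 0.19 in the same lines, against -1.74 in PAFSC and -0.81 in PEF. In both subunits PEF lay below the lowest line, and PAFSC lay below PEF. The difference from the somatic mean was 3.19 for CCT2 (SE 1.13) and 1.30 for CCT8 (SE 0.49), and from PEF alone 0.73 (SE 0.25) and 0.84 (SE 0.29), with limma adjusted p-values between 0.326 and 0.352.

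CCT7 had -0.06 to 0.13 in the iPS lines, against -3.72 in PAFSC and -0.59 in PEF. TCP1, the first subunit of the ring, had -0.02 to 0.25 in the lines, against -2.58 in PAFSC and -0.45 in PEF. Both followed the order of CCT2 and CCT8, with limma adjusted p-values of 0.335 and 0.340 against the somatic mean. For CCT6A and CCT4 the probe set with the highest mean was also the highest on PAFSC, so that the choice of probe set decided the direction against the somatic mean. The chosen CCT6A probe set read 0.29, 0.91, 1.21 and 1.73 in PS24, 30AC5, iPF4-2 and iPSCs-w, against 2.62 in PAFSC and 0.04 in PEF. Its other probe sets read -0.11 to 0.27 in the lines, against -5.02 and -7.22 in PAFSC and -0.80 and -0.23 in PEF. All 3 gave higher values in the lines than in PEF on average, and they disagreed on PAFSC by 9.84, the widest disagreement within any of these genes. The chosen CCT4 probe set differed from PEF by 0.54 (SE 0.48, limma adjusted p = 0.720), with PS24 at -0.52 and PEF at -0.51. Against the somatic mean 4 of 6 subunits averaged higher with the values as deposited, 5 of 6 after median centring and 6 of 6 after quantile normalization, and against PEF 6 of 6 under each.

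Mitochondria fold imported proteins in a related chamber made of HSPD1, with HSPE1 as its lid. HSPE1 had -0.07 to 0.12 in the iPS lines, against -7.04 in PAFSC and -0.38 in PEF. HSPD1 read 0.18, 0.19, 0.07 and 0.16 in PS24, 30AC5, iPF4-2 and iPSCs-w, against -0.88 in PAFSC and -0.26 in PEF. In both genes the lines lay above both somatic samples and within 0.18 of each other, and the pair had the lowest median range over the lines of the 12 families. The difference from PEF was 0.41 for each (SE 0.25 and 0.24, limma adjusted p = 0.598 and 0.585). HSPE1 differed from the somatic mean by 3.74 (SE 1.48, limma adjusted p = 0.344), a value set by PAFSC.

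Among the HSP70 genes, 7 of 9 averaged higher in the iPS lines than in PEF, where 63.6% of all genes did. Against the somatic mean it was 6 of 9, where 43.0% of all genes did. Both counts include the chosen probe set of HSPA9, a gene for which no direction is given below. Small differences are counted too, such as 0.08 from PEF for HSPA8 and 0.006 from the somatic mean for HSPA4. HSPA12A, a distant member of the family, read 0.06 in 30AC5, 0.15 in PS24, 1.16 in iPSCs-w and 1.74 in iPF4-2, against -0.55 in PAFSC and -1.15 in PEF. Here both somatic samples lay below every line, and PAFSC was not the lowest array. The difference was 1.63 (SE 0.62, limma adjusted p = 0.337), and 1.93 against PEF (SE 0.72, limma adjusted p = 0.378). HSPA2, an HSP70 known for its high level in the testis, differed by 3.53 (SE 1.36, limma adjusted p = 0.337), and by 3.43 from PEF (SE 2.09, limma adjusted p = 0.597). Its values are given with the marker classes because the lines differed widely among themselves. HSPA8, the constitutive cytosolic HSP70, had -0.55 to 0.65 in the lines, against 0.13 in PAFSC and -0.06 in PEF. On this chosen probe set both somatic samples lay within the range of the lines. Its other probe sets read -0.62, -3.69 and -3.87 in PAFSC, below every line, while PEF lay within the range on each. HSPA4, an HSP110 type exchange factor, had 0.10 to 0.64 in the lines, against 0.62 in PAFSC and 0.19 in PEF. Its other probe sets read -3.13 and -2.81 in PAFSC, below every line, and 0.30 and -0.30 in PEF.

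HSPA9, the mitochondrial HSP70, read -1.35, 0.64, 0.60 and 1.68 in PS24, 30AC5, iPF4-2 and iPSCs-w, against 1.52 in PAFSC and -1.07 in PEF. Its other probe sets had -0.52 to 0.23 in the lines, against -5.39 and -3.52 in PAFSC and -0.07 and -0.13 in PEF. The probe sets agreed neither on PAFSC nor on the spread of the lines, and no direction is given for this gene. The partners of mitochondrial HSP70 were more even. GRPEL1, its nucleotide exchange factor, read -0.03, 0.42, 0.07 and 0.11 in PS24, 30AC5, iPF4-2 and iPSCs-w, against -2.08 in PAFSC and -0.97 in PEF (difference 1.67, SE 0.50, limma adjusted p = 0.283, and 1.11 from PEF). DNAJA3, a mitochondrial J-protein, read 0.54, 0.39, 0.44 and 0.57 in the same lines, against -0.89 in PAFSC and -0.09 in PEF. In both genes every line lay above both somatic samples. DNAJA3 differed by 0.98 (SE 0.47, limma adjusted p = 0.393), and by 0.57 from PEF (SE 0.25, limma adjusted p = 0.439).

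HSP90AB1, the constitutive cytosolic HSP90, read 0.06, -0.02, 0.08 and 0.20 in PS24, 30AC5, iPF4-2 and iPSCs-w, against -4.19 in PAFSC and -0.41 in PEF. Every line lay above both, by 2.38 on average (SE 0.91, limma adjusted p = 0.337), and by 0.49 above PEF (SE 0.25, limma adjusted p = 0.525). HSP90AA1, the inducible form, had 0.49 to 1.37 in the lines, against -1.82 in PAFSC and 1.18 in PEF, so that PEF lay within the range of the lines. Its 5 probe sets ranged from -6.82 to -1.82 on PAFSC, the lowest array for each. HSPH1, an HSP110 type exchange factor, had -0.61 to 0.18 in the lines, against -0.30 in PAFSC and 0.08 in PEF. The co-chaperone FKBP4, an immunophilin that binds HSP90, read -0.31, -0.05, 0.05 and 0.72 in PS24, 30AC5, iPF4-2 and iPSCs-w, against -2.83 in PAFSC and -1.22 in PEF (difference 2.13, SE 0.60, limma adjusted p = 0.260, and 1.32 from PEF).

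The small heat shock proteins lay on the other side. All 7 averaged lower in the iPS lines than in PEF, with differences of -1.55 to -0.29, as did all 8 of their probe sets. In 4 of 7 every line lay below both somatic samples, against 10.3% of all genes. HSPB6, known from muscle, read -0.62 in 30AC5, 0.43 in PS24, -0.32 in iPSCs-w and 0.07 in iPF4-2, against 1.52 in PAFSC and 1.44 in PEF. HSPB8, the partner of BAG3 in selective autophagy, read -0.36 in 30AC5, -0.78 in PS24, -0.89 in iPSCs-w and -0.10 in iPF4-2, against 1.01 in PAFSC and 0.56 in PEF. On these chosen probe sets the somatic samples were close to each other and above every line. The chosen HSPB6 probe set differed by -1.59 (SE 0.49, limma adjusted p = 0.291), and by -1.55 from PEF (SE 0.45, limma adjusted p = 0.277). The second HSPB6 probe set had -0.48 to 0.13 in the lines, against 1.92 in PAFSC and 0.31 in PEF. It also placed every line below both, but differed from PEF by only -0.54. HSPB8 differed by -1.32 (SE 0.48, limma adjusted p = 0.335), and by -1.10 from PEF (SE 0.39, limma adjusted p = 0.359).

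HSPB2, a small heat shock protein of heart and skeletal muscle, had -0.23 to -0.03 in the iPS lines, against 1.29 in PAFSC and 0.49 in PEF. HSPB7, also known from the heart, had -0.44 to 0.11 in the lines, against 1.74 in PAFSC and 0.17 in PEF. The lines lay below both somatic samples in each, though in HSPB7 the difference from PEF was only -0.29. HSPB3 overlapped, with -0.59 to 0.37 in the lines, against 0.94 in PAFSC and 0.14 in PEF. Desmin (DES), a muscle marker, had -0.02 to 0.70 in the lines, against 1.68 in PAFSC and 0.96 in PEF. MYH7, the other muscle marker measured, had -0.36 to 1.19 in the lines, against 2.25 in PAFSC and -0.54 in PEF. Against PEF these markers thus went opposite ways. The part of muscle-like or fibroblast cells in the HSPB values was not tested.

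HSPB1, the widely expressed HSP27, read -0.25, 0.68, -1.22 and -1.11 in PS24, 30AC5, iPF4-2 and iPSCs-w, against -2.79 in PAFSC and 0.64 in PEF. HSPB11, which works in intraflagellar transport and is a family member by name, read -0.90, 1.06, 0.15 and -0.02 in the same lines, against -3.75 in PAFSC and 0.62 in PEF. For these 2 genes the direction depended on the somatic sample: the lines averaged below PEF and above PAFSC. CRYAB, alpha B crystallin, is a small heat shock protein whose symbol the rule does not take. It read -0.22, 0.39, -1.39 and -1.44 in PS24, 30AC5, iPF4-2 and iPSCs-w, against 1.48 in PAFSC and 2.59 in PEF, with every line below both (difference -2.70, SE 0.68, limma adjusted p = 0.227, and -3.26 from PEF). Against the somatic mean 5 of 7 HSPB genes averaged lower as deposited and after median centring, and 6 of 7 after quantile normalization.

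In the endoplasmic reticulum, HSPA5 (BiP) is the HSP70 that binds newly imported proteins and controls the sensors of the unfolded protein response. It read -0.01 in 30AC5, 0.12 in PS24, 0.01 in iPSCs-w and -0.37 in iPF4-2, against 1.34 in PAFSC and 0.82 in PEF. Every line lay below both somatic samples, with a difference of -1.14 (SE 0.46, limma adjusted p = 0.348), and of -0.88 from PEF (SE 0.30, limma adjusted p = 0.341). HSP90B1, the HSP90 of the same compartment, was nearly level on its chosen probe set, with 0.05 to 0.43 in the lines, against 0.44 in PAFSC and 0.42 in PEF. Its second probe set had -0.27 to 0.04 in the lines, against -3.06 in PAFSC and 0.04 in PEF. DDIT3, a transcription factor induced by ER stress, read -0.93, 1.08, -0.33 and 0.33 in PS24, 30AC5, iPF4-2 and iPSCs-w, against 1.65 in PAFSC and 1.69 in PEF. It too lay below both somatic samples in every line (difference -1.63, SE 0.62, limma adjusted p = 0.337, and -1.66 from PEF).

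Of the ER folding and unfolded protein response list, 17 of 23 genes were measured and 0 passed limma's test. In that list the lines lay below both somatic samples in 3 genes (HSPA5, DDIT3 and the disulfide isomerase PDIA3) and above both in 0. Over all genes these shares were 10.3% and 15.6%. The median difference from the somatic mean was -0.22, against -0.26 over all genes. From PEF it was -0.17, against 0.17 over all genes. HSPA13, a microsomal HSP70, had -1.24 to -0.61 in the lines, against -0.39 in PAFSC and -0.35 in PEF. Its second probe set had -1.29 to -0.60 in the lines, against -5.47 in PAFSC and 0.48 in PEF. Both probe sets placed every line below PEF, and they differed on PAFSC by 5.08. On the chosen probe sets the ER J-proteins DNAJB11 and DNAJC3 had their highest value on PAFSC, at 1.76 and 1.62. They differed from PEF by -0.20 and 0.10. The second DNAJC3 probe set had -1.10 to 0.61 in the lines, against -0.09 in PAFSC and -0.25 in PEF.

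SERPINH1 (HSP47) is a chaperone of the ER that is specific for collagen. It read 1.28 in 30AC5, 0.60 in PS24, -3.20 in iPSCs-w and -0.88 in iPF4-2, against -0.45 in PAFSC and 2.24 in PEF. The lines lay below PEF and on both sides of PAFSC. The difference was -1.45 (SE 1.25, limma adjusted p = 0.499), and -2.79 from PEF (SE 1.67, limma adjusted p = 0.592). Of 11 collagen genes listed as its clients 7 were measured, and all 7 averaged lower in the iPS lines than the somatic mean, with a median difference of -2.49. In 4 of them every line lay below both samples, against 10.3% of all genes. Against PEF 5 of 7 averaged lower, with a median of -2.39. COL5A1 read -0.03, 0.98, -0.30 and -1.76 in PS24, 30AC5, iPF4-2 and iPSCs-w, against 2.06 in PAFSC and 4.61 in PEF. COL1A2 had -0.29 to 0.06 in the lines, against 2.35 in PAFSC and 2.51 in PEF, and was the only listed collagen to pass in limma against PEF (difference -2.57, adjusted p = 0.0362). Among the fibroblast markers, which share COL1A2 and COL3A1 with the collagen list, all 10 averaged lower in the lines than the somatic mean and 8 of 10 lower than PEF, and their part in the SERPINH1 values was not tested.

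J-proteins choose the clients of HSP70, and their 22 genes did not lie on one side. Against the somatic mean 3 of 4 DNAJA, 3 of 7 DNAJB and 7 of 11 DNAJC genes averaged higher in the iPS lines. Against PEF it was 2 of 4, 3 of 7 and 10 of 11. The DNAJB count against the somatic mean moved with the scaling, to 2 of 7 after quantile normalization and 4 of 7 after median centring. DNAJC24, which takes part in the synthesis of diphthamide on elongation factor 2, read -0.10, 0.43, -0.30 and 0.20 in PS24, 30AC5, iPF4-2 and iPSCs-w, against -2.99 in PAFSC and -0.44 in PEF. DNAJB2, known from neurons, had 0.05 to 0.51 in the lines, against -0.31 in PAFSC and -0.02 in PEF. In both genes every line lay above both somatic samples, by 1.77 (SE 0.71, limma adjusted p = 0.348) and 0.40 (SE 0.45, limma adjusted p = 0.586) relative to the somatic mean. Relative to PEF it was 0.50 (SE 0.36, limma adjusted p = 0.660) and 0.25 (SE 0.29, limma adjusted p = 0.781), and the lowest line came within 0.2 of PEF.

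DNAJC9, a histone chaperone, had -0.54 to 0.55 in the lines, against -4.82 in PAFSC and -0.32 in PEF. DNAJC19, of the mitochondrial import motor, had -0.50 to 0.18 in the lines, against -3.57 in PAFSC and -0.46 in PEF. Their differences were 2.70 and 1.94 from the somatic mean and 0.45 and 0.38 from PEF, which lay within the range of the lines in both. On the other side, DNAJA4 had -0.16 to 0.42 in the lines, against 2.64 in PAFSC and 0.10 in PEF, and DNAJC14, a J-protein of the ER membrane, had -0.70 to -0.15 in the lines, against 2.25 in PAFSC and -0.21 in PEF. On these chosen probe sets PEF again lay within the range of the lines. The second DNAJA4 probe set had -0.71 to 0.15 in the lines, against 2.20 in PAFSC and 0.56 in PEF. The second DNAJC14 probe set had -0.86 to 0.04 in the lines, against -0.97 in PAFSC and 0.55 in PEF. Both second probe sets placed every line below PEF. DNAJB4, a J-protein related to DNAJB1, read -0.69 in 30AC5, -0.28 in PS24, -1.17 in iPSCs-w and 1.31 in iPF4-2, against -0.17 in PAFSC and 1.98 in PEF. PEF was the highest array, with a difference of -2.19 (SE 0.93, limma adjusted p = 0.429), and iPF4-2 came closest to it. DNAJC17, a J-protein of the nucleus, had -0.13 to 0.18 in the lines, against -0.04 in PAFSC and -0.62 in PEF.

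BAG proteins release clients from HSP70. On the chosen probe sets all 4 averaged lower in the iPS lines than the somatic mean and higher than PEF. In 0 of 4 did the lines lie apart from PEF or from both somatic samples on these probe sets. BAG3, the stress-inducible member, had -0.42 to -0.13 in the lines, against 1.58 in PAFSC and -0.41 in PEF. BAG6, which guides membrane proteins to the ER, had -0.12 to 0.14 in the lines, against 2.19 in PAFSC and -0.08 in PEF. On these probe sets the distance to the somatic mean was thus that to PAFSC. The second probe sets of BAG1, BAG3 and BAG5 averaged 1.44, 0.80 and 1.79 above the somatic mean, with PAFSC at -2.28, -2.63 and -2.98. That of BAG3 placed every line below PEF (difference -0.93), and that of BAG1 every line above PEF (0.51). Over all 9 BAG probe sets, 6 averaged lower and 3 higher than the somatic mean. After median centring or quantile normalization 2 of 4 BAG genes averaged higher than the somatic mean. HSPBP1, another nucleotide exchange factor, had -0.30 to 0.32 in the lines, against -0.15 in PAFSC and -0.10 in PEF.

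The heat shock factors also had PEF close to the lines. HSF1 read -0.65, 0.25, 0.17 and 0.31 in PS24, 30AC5, iPF4-2 and iPSCs-w, against 1.50 in PAFSC and -0.17 in PEF. HSF2, a factor active in development, read 0.16, 0.65, 0.27 and -0.05 in the same lines, against -3.06 in PAFSC and -0.19 in PEF. Every line lay above both somatic samples in HSF2, by 1.89 (SE 0.76, limma adjusted p = 0.348), and by 0.45 relative to PEF (SE 0.34, limma adjusted p = 0.676). HSF2BP, which works in meiotic recombination and is in the family by name, had -0.43 to 0.29 in the lines, against -0.83 in PAFSC and -0.31 in PEF.

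The second question was whether chaperone genes differ between the lines by surface antigen. Lines labelled SSEA1 (PS24 and 30AC5) were set against lines labelled for SSEA3 and SSEA4 without SSEA1 (iPSCs-w and iPF4-2). In limma 0 of the 59 genes passed, as did 0.0% of all probe sets, and 3 had an unadjusted p under 0.05, or 5.08%, against 2.84%. The SSEA1 lines averaged higher in 21 genes and lower in 38, where 50.5% of all probe sets averaged higher and 49.5% lower, with a median difference of -0.10, against -0.02 over all genes. They lay apart above in 9 genes, or 15.3%, against 21.0% of all probe sets and 19.8% of all genes. They lay apart below in 16 genes, or 27.1%, against 20.2% of all probe sets and 22.2% of all genes. Without PAFSC 0 of the 59 passed and 6 had an unadjusted p under 0.05, where 0.0167% and 11.1% of all probe sets did. Each class holds 2 lines, so a gene can easily lie apart. The SSEA1 class includes PS24, the array with a 5′ minus 3′ control signal of -1.90, whose part in these shares was not tested.

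HSPA2 held the largest difference of the 59 genes. It read -2.06 in 30AC5 and -1.19 in PS24, against 1.72 in iPSCs-w and 3.24 in iPF4-2, with -3.21 in PAFSC and -3.0 in PEF. The SSEA1 lines lay between the somatic samples and the other lines. The difference was -4.11 (SE 0.74, limma adjusted p = 0.392), with an SE of 0.61 and a limma adjusted p of 0.122 without PAFSC. DNAJC6 (auxilin), which strips clathrin from vesicles and is known from neurons, went the other way. It read 2.51 in 30AC5 and 2.45 in PS24, against -1.35 in iPSCs-w and -0.35 in iPF4-2, with -0.33 in PAFSC and -1.16 in PEF. Only the SSEA1 lines lay above the somatic samples. The difference was 3.33 (SE 0.68, limma adjusted p = 0.469), and without PAFSC the SE was 0.40 and the limma adjusted p 0.0906.

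SERPINH1, with the values given above, was higher in both SSEA1 lines than in the others, by 2.98 (SE 1.09), and without PAFSC the SE was 0.80 and the limma adjusted p 0.310. HSPB1 was also higher in both SSEA1 lines, by 1.38 (SE 1.08), and without PAFSC the SE was 0.38 and the limma adjusted p 0.319. HSPA12A was lower in both SSEA1 lines, with a difference of -1.35 (SE 0.63), and without PAFSC the SE was 0.31 and the limma adjusted p 0.246. These genes split the lines in the same way with PS24 and 30AC5 on one side, and none passed the test.

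BAG1, an exchange factor of HSP70, read -0.54 in 30AC5 and -1.54 in PS24, against 0.70 in iPSCs-w and -0.11 in iPF4-2, with 0.59 in PAFSC and -1.31 in PEF (difference -1.33, SE 0.83). Its second probe set read -0.15 and -0.40 in the SSEA1 lines, against 0.31 and 0.58 in the others. The mean difference there was smaller, at -0.72, and in the same direction. DNAJB1, the main J-protein of inducible HSP70, read -1.14 in 30AC5 and -0.37 in PS24, against 0.71 in iPSCs-w and -0.25 in iPF4-2, with -0.73 in PAFSC and -0.37 in PEF (difference -0.98, SE 0.68). All 6 chaperonin subunits averaged lower in the SSEA1 lines, with a median difference of -0.18. In 3 of them the classes lay apart, where 22.2% of all genes lay apart in this direction. TCP1, 1 of the 3, had -0.02 to 0.03 in the SSEA1 lines, against 0.14 to 0.25 in the others.

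Other genes separated these lines as well. Pluripotency markers lay apart in 5 of 5 measured genes and epithelial markers in 6 of 7, all lower in the SSEA1 lines. Of all genes 22.2% lay apart in this direction. The epithelial median was 0.55 in 30AC5 and -0.16 in PS24, against 2.81 in iPSCs-w and 2.76 in iPF4-2. Of 4 blood markers 3 were measured. AIF1, a marker of macrophages, read -1.63 and -1.86 in the SSEA1 lines, against 3.87 and 3.74 in the others. PTPRC and CD14, the other measured markers of the blood list, had -0.10 to 0.18 in all 4 lines. The part of these cell states in the values of HSPA2, DNAJC6 and SERPINH1 was not tested.

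**Figure D3:**
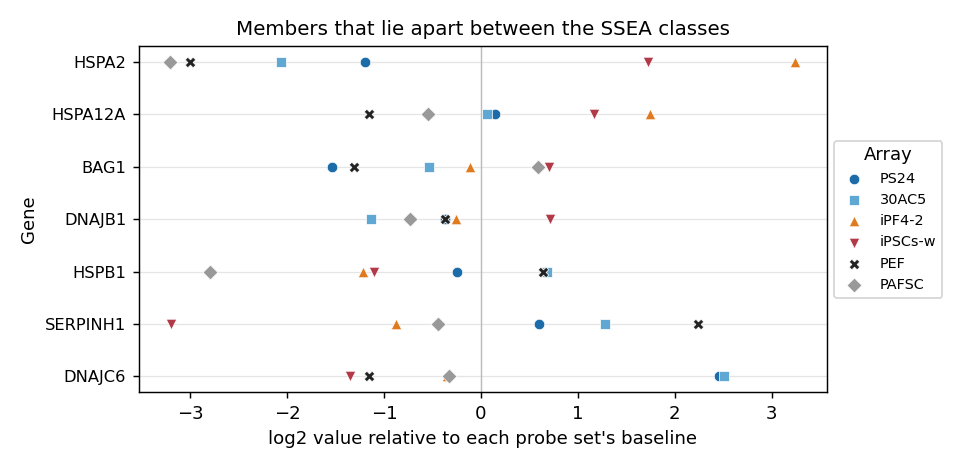
Log2 values (horizontal axis, relative to each probe set's baseline) of 7 genes that lay apart between the SSEA1-labelled lines (blue) and the lines labelled for SSEA3 and SSEA4 only (orange and red), with PEF and PAFSC beside them. Each symbol is 1 array. HSPA2 shows the SSEA1 lines at -1.19 and -2.06 and the others at 3.24 and 1.72, and DNAJC6 shows the reverse order.

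Chaperone genes varied among the 4 lines about as much as genes in general. The range over the lines had a median of 0.70 in the chaperone genes, against 0.74 over all genes, and 19 of 59 (32.2%) had a range over 1, against 33.8% of all genes. Ranges over 2 were found in 7 genes, or 11.9%, against 9.99% of all genes, among them HSPA2 at 5.30, SERPINH1 at 4.47, DNAJC6 at 3.85, DNAJB4 at 2.48 and BAG1 at 2.24. The chaperonin subunits had a median range of 0.35. HSPA genes had a median of 1.20, from 0.26 in HSPA14 to 5.30 in HSPA2. The line with the highest value was iPSCs-w in 27 of 59 genes, or 45.8%, against 30.3% of all genes. The line with the lowest was PS24 in 21 genes, or 35.6%, against 26.3% of all genes, and PS24 is the array with the low 5′ control signal.

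Of 14 measured genes of the stress-inducible list, iPSCs-w was the highest line in 6 and the lowest in 5. HSPA6, an HSP70 that is strongly induced by heat in human cells, read -0.26 in 30AC5, 0.77 in PS24, 1.78 in iPSCs-w and -0.60 in iPF4-2, against 1.22 in PAFSC and -0.93 in PEF. HSP70.2, another HSP70 symbol of the pig array, read -0.14 in 30AC5, 1.07 in PS24, 1.39 in iPSCs-w and -1.42 in iPF4-2, against 1.11 in PAFSC and 0.14 in PEF. Both genes had iPSCs-w highest, PS24 second and iPF4-2 lowest among the lines. DNAJB1 was also highest in iPSCs-w, and PS24 and iPF4-2 lay within 0.2 of each other there. HSPA8 had 0.65 in iPSCs-w and -0.55 in PS24, and all 4 of its probe sets had iPSCs-w as the highest line. The 5 with iPSCs-w lowest were CRYAB, DNAJA1, HSP90AA1, HSPE1 and SERPINH1.

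Of the stress-inducible list 14 of 21 genes were measured and 0 passed limma's test in either comparison. Against the somatic mean 9 of 14 averaged higher in the iPS lines, with a median difference of 0.28, against -0.26 over all genes. Against PEF it was 8 of 14, with a median of 0.08, against 0.17 over all genes, so that the order of the list and all genes turned without PAFSC. DNAJB9, an ER J-protein induced by the unfolded protein response, read 0.61 in 30AC5, -1.11 in PS24, -0.01 in iPSCs-w and -0.44 in iPF4-2, against 0.01 in PAFSC and 0.96 in PEF. Its other probe sets read -1.41 and -1.39 in PS24, again the lowest of all arrays.

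The somatic samples were compared as values only, since each is 1 array. PEF lay above PAFSC by over 2 log2 units in 15 of 59 genes, or 25.4%, against 16.3% of all probe sets and 17.7% of all genes. It lay below by over 2 in 7 genes, or 11.9%, against 20.1% of all probe sets and 20.8% of all genes. The median of PEF minus PAFSC was -0.02 over the chaperone genes and -0.62 over all genes. HSPE1 had -0.38 in PEF, against -7.04 in PAFSC, and CCT2, DNAJC9, HSPB11 and HSP90AB1 were among the others lower in PAFSC by over 3. PAFSC was the lowest of the 6 arrays in 22 genes, or 37.3%, against 30.4% of all genes, and the highest in 20, or 33.9%, against 47.2%.

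The chosen probe sets leaned towards high values on PAFSC. Among the 24 genes with several probe sets, the chosen one was the highest of its gene on PAFSC in 22. The probe sets of a gene lay a median of 3.05 apart on PAFSC, against 0.33 to 0.63 on the other arrays. They were over 2 apart in 15 of 24 genes on PAFSC, in 2 on PS24 and in 0 on the other 4. Probe sets of a gene disagreed on the direction against the somatic mean in 11 of 24 genes, and against PEF in 6 of 24. Among the 15 genes on PAFSC were HSPA4, HSPA8, HSPA9, HSPA13, HSP90AA1, HSP90B1, CCT6A, BAG3 and DNAJC11.

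**Figure D4:**
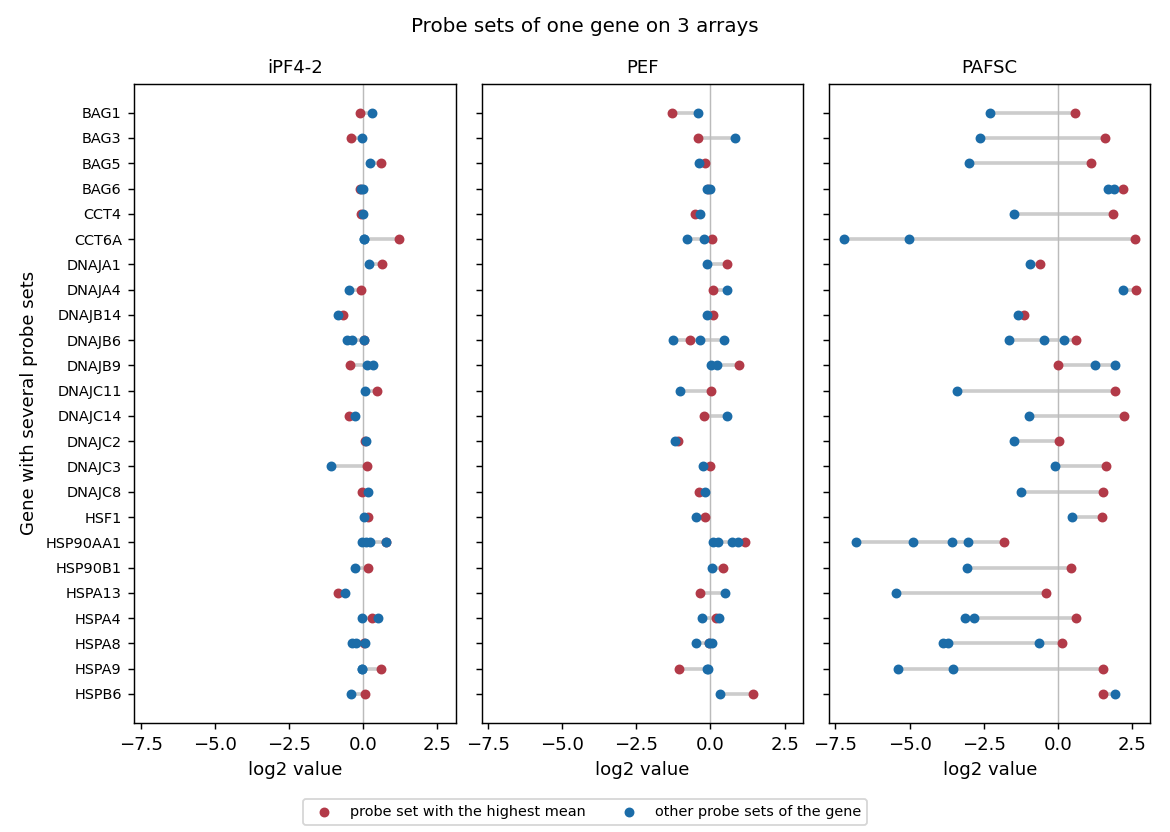
Log2 values (horizontal axis) of every probe set of the 24 genes that have several, on the iPF4-2, PEF and PAFSC arrays, with the probe set that stood for the gene in red and the others in blue. Points of 1 gene lie close together on iPF4-2 and PEF and up to 9.84 apart on PAFSC (CCT6A).

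Genes that work beside these chaperones were read from lists. Of the HSP90 and HSP70 co-chaperone list 12 of 15 genes were measured, 8 averaged higher in the iPS lines than the somatic mean, and 3 lay apart above both samples and 0 below. Its median difference was 0.26 from the somatic mean and 0.10 from PEF. STIP1, which links HSP70 to HSP90, had -0.23 to 0.51 in the lines, against -1.30 in PAFSC and -0.86 in PEF. Prefoldin hands actin and tubulin to the cytosolic chaperonin. Of its list 5 of 7 genes were measured, with 4 higher on average and 2 apart above. The median difference was 1.07 from the somatic mean and 0.06 from PEF, and VBP1 had -0.29 to 0.20 in the lines, against -4.62 in PAFSC and -0.44 in PEF. Of the mitochondrial proteostasis list 6 of 13 genes were measured, with 5 higher on average and 3 apart above, and a median difference of 1.53 from the somatic mean and 0.59 from PEF. Over all genes these medians were -0.26 and 0.17, and 15.6% of all genes lay apart above both samples. Against PEF, 5 of the 6 mitochondrial genes lay apart above, where 35.9% of all genes did. CLPB, a mitochondrial disaggregase, read -0.06, -0.75, 0.33 and 0.37 in PS24, 30AC5, iPF4-2 and iPSCs-w, against -2.67 in PAFSC and -1.43 in PEF (difference 2.02, SE 0.58, limma adjusted p = 0.261, and 1.40 from PEF). No gene of these 3 lists passed limma's test against the somatic mean or against PEF. Endothelial markers (5 of 5 measured) and muscle markers (2 of 4 measured) all had their highest value on PAFSC. Against PEF 5 of 5 endothelial markers averaged higher in the lines, with a median difference of 0.13, and the muscle markers were split, with DES lower and MYH7 higher.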

How the data were processed

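Gene expression was measured on the Affymetrix GeneChip Pig Genome Array with biotin-labelled RNA, per the labels' protocols. The table that the authors deposited gives a log2 value for each of 24123 probe sets on each of 6 arrays, with no missing value. Its software, normalization and baseline are not given in the sources used, and detection above background is unknown. Precision is limited by the number of arrays. The 124 control probe sets were left out. The platform annotation gave 1 symbol to 10069 probe sets, several to 198 and none to 13732, and only the first were named. Of the 95 chaperone probe sets, 92 matched the RefSeq gene table. Samples were grouped by the labels. Two-sided tests were made with limma 3.58.1 in R 4.3.3 by lmFit and eBayes, with Benjamini-Hochberg adjustment over the remaining 23999 probe sets and a threshold of 0.05. Residual degrees of freedom were 4 for iPS against somatic and 3 for the marker classes. The script was tested on simulated data. Named genes were, per family, up to 4 with the largest difference from somatic and up to 3 by class whose lines did not overlap. The 6 with the largest difference between PEF and PAFSC were added. These steps picked 45 of the 59. Genes whose probe sets differ in sign and listed genes were also planned, but that count has no step for them. Further genes were named after their values were seen. Some genes, among them DNAJB6, whose probe sets differ in sign, were not described. The genes and lists (stress-inducible, ER, co-chaperone, prefoldin, mitochondrial, collagen and cell type markers) were chosen with earlier results of these data known. Each test was repeated after median centring or quantile normalization, without the lowest 40% of probe sets by mean, with robust eBayes (statmod 1.5.0), with probe sets averaged per gene, and without each sample in turn. Choosing probe sets over the 5 arrays other than PAFSC was added after seeing the data. Promoter sequences were not analysed here.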

Additional observations from a re-analysis of the deposited data

Results flagged for a closer look

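For 2 of the 59 genes 1 iPS line stood apart from the other 3 by Dixon's test for outliers at the 95% level, which flags about 1 in 20 groups by chance. DNAJA2, a cytosolic J-protein, read 0.68 in iPSCs-w and -0.01 to 0.07 in the other lines, so that the gap took 0.884 of the range. HSF1 read -0.65 in PS24 and 0.17 to 0.31 in the other lines, with a gap of 0.848 of the range. The second HSF1 probe set read -0.03 in PS24, within its range over the other lines.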

How the results depend on the processing

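No chaperone gene passed limma's threshold under quantile normalization, median centring, the filter, robust eBayes or the other choices of probe set, in either test. Leaving out samples gave 0 to 31 genes for iPS against somatic, with 0 to 14303 probe sets called, against 6 with all samples. The 31 genes (52.5%, against 59.6% of all probe sets) came without PEF, where PAFSC alone stands for the somatic samples. Probe sets called numbered 1 after median centring and 35 with the lowest 40% left out, a filter that kept 30 of the 59 genes. For the marker classes they numbered 90 after quantile normalization, 44 with the filter and 0 to 4 with a sample left out, against 0. The median difference from somatic over the chaperone genes was 0.17 as deposited, 0.31 after quantile normalization, 0.47 after median centring, 0.53 with probe sets averaged, 0.34 with probe sets chosen without PAFSC, -0.65 with the filter, and -0.055 (without iPSCs-w) to 0.25 with a sample left out. Over all probe sets it was -0.34 as deposited and -0.04 after either scaling. PEF minus PAFSC had a median of 0.13, 0.73, 0.38 and 0.36 under the first 4 of these, against -0.02. HSPA13 turned to 0.53 with probe sets averaged and to 1.56 with the other choice, which takes its second probe set. Among 306 values of single genes under an alternative, 288 kept direction and call, and 16 passed the threshold, all without PEF. No paired analysis was possible because the lines and somatic samples share no replicate pairing in the labels. The PAFSC array limits every difference from somatic, and the cause of its spread was not tested.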
